A study of Homo sapiens with 6 samples.

Results

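The genes described here are 38 genes of glycolysis and of the hypoxia response, among the 36884 genes of a deposited count table from RPE1 cells with reduced MK5. They were listed by name, and a symbol that stood on several rows was taken from its row of highest mean count. The list holds 4 transporters, 17 glycolytic enzymes, 4 regulators of glycolytic flux, 11 other hypoxia targets and 2 oxygen sensors. Of the 38, 35 had enough counts to be tested.

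Glycolysis splits glucose into pyruvate in the cytosol, and lactate dehydrogenase turns pyruvate into lactate. Many of its enzymes and transporters are targets of the hypoxia-inducible factors HIF-1 and HIF-2. In these an oxygen-labile alpha subunit (HIF1A or EPAS1) pairs with ARNT and binds DNA at the core ACGTG or GCGTG. The same factors drive genes with other tasks, such as VEGFA in vessel growth, CA9 in pH control and P4HA1 in collagen folding, and several glycolytic genes are also targets of MYC. The retinal pigment epithelium in the eye is known for passing glucose on to photoreceptors and using lactate itself.

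RPE1 is a human cell line from retinal pigment epithelium, immortalized but not transformed. The siMK5 group received siRNA against the kinase MK5 (gene MAPKAPK5), and the siCon group received control siRNA, both for 48 h with a lipid transfection reagent. All 6 libraries, 3 in each group, came from cells in which LATS1 and LATS2, the kinases that restrain YAP and TAZ in the Hippo pathway, were inactivated by CRISPR-Cas9. No group with intact LATS kinases and none kept in low oxygen was analysed here, and whether the line was 1 clone is not given in the sources used here. The comparison asks how transcripts change when MK5 is lowered in such cells.

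Library totals ran from 27188074 to 28236773 counts. MAPKAPK5 stood at 17.4, 14.1 and 16.2 CPM (counts scaled to a common library size) in siMK5 replicates 1, 2 and 3, and at 35.6, 29.05 and 31.3 CPM in siCon replicates 1, 2 and 3, with a log2 fold change of −1.01 ± 0.14 (standard error; adjusted p = 0.00169 in edgeR). The epithelial keratins KRT8 and KRT18 were present in all libraries, beside KRT7, VIM and CDH2, at 307 to 470 and 79.6 to 103 CPM in siMK5 and at 600.5 to 675 and 142 to 152 CPM in siCon. RPE65, RLBP1, TYR and TTR, which define differentiated retinal pigment epithelium, were at or near 0, with at most 0.0737 CPM in any library, while BEST1 and PMEL reached 0.904 and 0.64 CPM in siMK5 and 0.885 and 2.4 CPM in siCon. PTPRC, CD3E and CD68 of leukocytes reached at most 0.202 CPM in siMK5 and 0.295 CPM in siCon. Of the endothelial markers, PECAM1 was listed at 0 throughout, CDH5 reached 0.073 CPM in siMK5 and 0.46 CPM in siCon, and VWF reached 0.278 CPM in siMK5 and 2.76 CPM in siCon, highest in siCon replicate 1. ALB was at most 0.278 CPM in siMK5 and 0.0383 CPM in siCon, and HBB and HBA1 were listed at 0.

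One library stood apart in these genes, though not in them alone. siCon replicate 1 was higher than both other siCon libraries for 32 of the 35 tested members (91.4%), against 45.4% of all 13431 genes tested. It was at least 2-fold above their mean for 13 members (37.1%), against 5.0% of all genes. The median excess of siCon replicate 1 was 0.80 on the log2 scale over the members and −0.01 over all genes. Over the 34 tested hypoxia targets outside the list it was 0.72. Of those targets 70.6% were higher there than in both other siCon libraries, and 23.5% were at least 2-fold above their mean. This library also lay apart from the others on principal component 2 (20.95% of variance). Among the members the excess was widest for CA9 (3.21), NDRG1 (2.33), BNIP3 (1.55) and LDHA (1.54), while VEGFA (−1.41) and PFKL (−0.73) were lower there than in the other siCon libraries. siMK5 replicate 1 differed less from its own group, with a median of 0.10 over the members. CA9 (1.28), SLC2A3 (0.83) and ADM (0.77) were also higher in siMK5 replicate 1, and NDRG1 (−0.90) was lower. The change of each tested member is therefore given with all libraries and without siCon replicate 1, and that of a gene outside the list also without it where the call changed or the value moved by over 1.5 times. Beyond that, the part of this library in the results with all 6 was not tested.

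**Figure D1:**
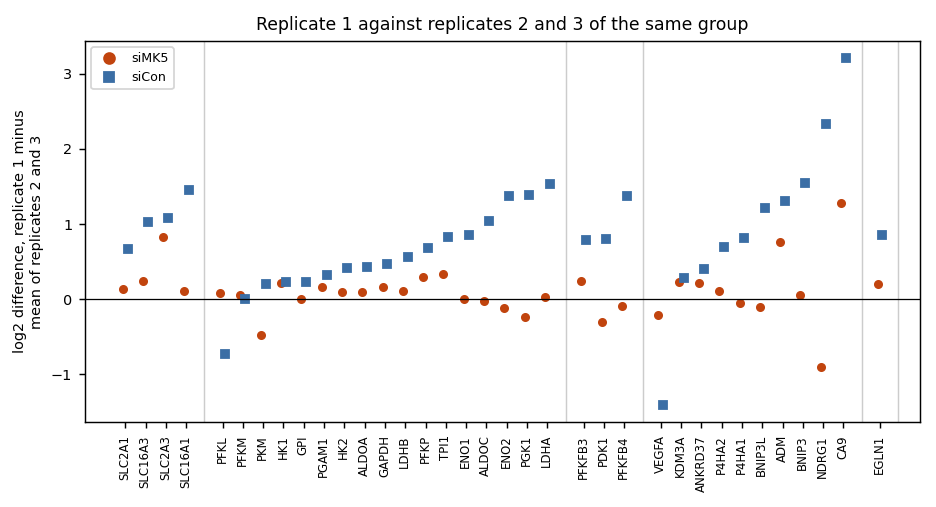
Log2 difference of replicate 1 from the mean of replicates 2 and 3 of its own group (vertical axis, log2 of CPM + 0.5) for each of the 35 tested members (horizontal axis, grouped by class and ordered by the siCon value). Circles are siMK5 and squares siCon. The siCon squares lie above 0 for all members but PFKL and VEGFA, and reach 3.21 for CA9, while most siMK5 circles lie near 0.

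The promoters were searched for the HIF core as a feature that the members might share. The form ACGTG is called the motif here, and GCGTG was searched separately. In the 250 bases before the RefSeq transcription start (build GRCh38.p14), 20 of the 33 members with a promoter window held ACGTG on either strand (60.6%), against 21.7% of 27305 genes and 18.5% of 35116 windows. The E-box CACGTG, which MYC and related factors bind, counts as 2 overlapping matches, 1 on each strand. Outside any E-box the motif was found in 17 of the 33 members (51.5%) and 15.7% of all genes. An E-box was found in 8 members (24.2%) and 7.73% of all genes. GCGTG was found in 17 members (51.5%) and 36.2% of all genes, a smaller contrast than for ACGTG. A gene with several windows had more chances of a match, and since many members were listed as HIF targets, the share describes the list. The windows printed here are those of the members that passed the test between siMK5 and siCon and hold the motif, and that of CA9, a widely used hypoxia marker. For a gene with several windows, the window with the most matches is printed. Capitals mark the motif on either strand, 12 bases are shown on either side, and each sequence reads 5′ to 3′ on the gene's strand.
LDHA, chr11:18394366-18394506, plus strand: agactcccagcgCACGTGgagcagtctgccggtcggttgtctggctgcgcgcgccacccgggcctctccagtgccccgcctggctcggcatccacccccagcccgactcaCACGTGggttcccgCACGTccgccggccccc
PGK1, chrX:78104034-78104081, plus strand: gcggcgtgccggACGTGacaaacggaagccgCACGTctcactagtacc
HK2, chr2:74834964-74835038, plus strand: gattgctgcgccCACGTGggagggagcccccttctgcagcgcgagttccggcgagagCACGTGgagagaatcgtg
GPI, chr19:34364818-34364846, plus strand: acactgcctgtaACGTGgaaggtgttcga
PFKP, chr10:3069038-3069066, plus strand: ccacgagcgcctACGTGatgcccggcccg
PFKM, chr12:48105347-48105375, plus strand: agatccagagatCACGTtagggtacacca
TPI1, chr12:6868076-6868104, plus strand: cgtgcgccgccgCACGTagccccagactc
ANKRD37, chr4:185396667-185396714, plus strand: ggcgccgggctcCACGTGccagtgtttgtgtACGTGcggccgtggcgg
P4HA1, chr10:73096936-73096964, minus strand: tgtgatcgagctCACGTagcgagggctgc
CA9, chr9:35673898-35673926, plus strand: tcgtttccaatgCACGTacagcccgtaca

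In the stretches printed, LDHA holds 5 matches, of which 4 lie in E-boxes, and all 4 of HK2 lie in E-boxes. ANKRD37 holds 3, PGK1 holds 2, and GPI, PFKP, PFKM, TPI1, P4HA1 and CA9 hold 1 each. The other window of HK2, which is not printed, held 2 matches outside any E-box. The motif was present in genes of either direction. It was found in 7 of the 12 members that fell, in 2 of the 4 members with a window that rose, and in 10 of the 14 that did not pass. The 7 windows of HK2, GPI, PFKP, PFKM, TPI1, PGK1 and LDHA belong to genes lower in siMK5, and those of ANKRD37 and P4HA1 to genes higher in siMK5. PKM, PGAM1, ENO1, LDHB, SLC2A1, P4HA2 and KDM3A, which also passed the test, had no match to ACGTG in this stretch. Of these, ENO1 held 2 matches to GCGTG and KDM3A held 1.

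In siMK5 cells, the glycolytic enzymes that passed the test were lower and the other hypoxia genes that passed were higher. Of the 17 glycolytic enzymes, 11 fell and none rose, with PKM (pyruvate kinase) at 31.1% of its siCon level, LDHA at 35.8% and PGK1 at 45.4%. Of the 11 tested hypoxia targets and oxygen sensors outside glycolysis, 5 rose and none fell, among them P4HA2 (2.96-fold) and VEGFA (2.15-fold). The other 6 did not pass and had log2 fold changes between −2.71 and 0.02. With the replicate number as a block, PGK1 did not pass (adjusted p = 0.0967), and CA9 and ADM fell (adjusted p = 0.0251 and 0.0114) beside the same number of rises. The difference between the 2 classes was not tested. In edgeR's quasi-likelihood test over all genes, 22.5% of the 13431 genes tested rose, 23.7% fell and 46.2% passed in either direction at an adjusted p below 0.05. Over the 35 tested members, 6 rose, 12 fell and 17 did not pass. Every siMK5 library was above every siCon library for 6 members and below for 12, against 30.6% and 29.8% of all genes (60.4% in either direction). The median log2 fold change was −0.70 over the enzymes, 0.02 over the other hypoxia genes, −0.50 over all tested members and 0.00 over all genes. The median of the same 11 hypoxia genes was just below 0 with no low-count filter (−0.0010) and in DESeq2 (−0.0035), and it was −0.21 over the 13 that are tested with no filter. In bulk RNA, fewer cells with a transcript and less of it per cell cannot be told apart, and p-values measure only the spread between these libraries, for which the sources name biological replicates without saying how they were grown apart.

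Without siCon replicate 1 the calls had these directions too. That library was singled out because it was high in most of these members, so leaving it out raises most of their log2 fold changes. The rises in this fit are therefore no separate support for those with all libraries, and rises called only here rest on that choice of library. SLC16A1, PFKFB3, PFKFB4, PDK1, NDRG1 and EGLN1 rose here but in no other fit with 1 library left out. In the fit without siCon replicate 1, 32.3% of the 13774 genes tested rose and 32.1% fell (64.4% in either direction). Of the enzymes 11 fell and none rose, with a median of −0.45. Of the other hypoxia genes 7 rose and none fell, with a median of 0.58. Over all members 12 rose and 12 fell. Leaving out siMK5 replicate 1, 2 or 3 gave 4 of 17 enzymes that fell each time, beside 18.9%, 15.4% and 15.8% of all genes that fell. Leaving out any library other than siCon replicate 1 gave only 1 or 2 of 11 other hypoxia genes that rose, close to the share of all genes that rose in those fits (17.0% without siCon replicate 2 or 3, and 18.2%, 15.1% and 15.4% without siMK5 replicates 1, 2 and 3). Within replicate pairs 1, 2 and 3, the median log2 difference of the enzymes was −0.95, −0.50 and −0.46, and that of the other hypoxia genes was −0.37, 0.39 and 0.60. All 3 pairs were negative for 14 of the 17 enzymes (82.4%), against 36.2% of all genes. Of the 11 other hypoxia genes all 3 pairs were positive for 5 (45.5%), against 37.4% of all genes, and negative for CA9, ADM and BNIP3 (27.3%), against 36.2%. The hypoxia median was below 0 only in pair 1, which holds siCon replicate 1, whereas the enzyme median was below 0 in each pair.

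**Figure D2:**
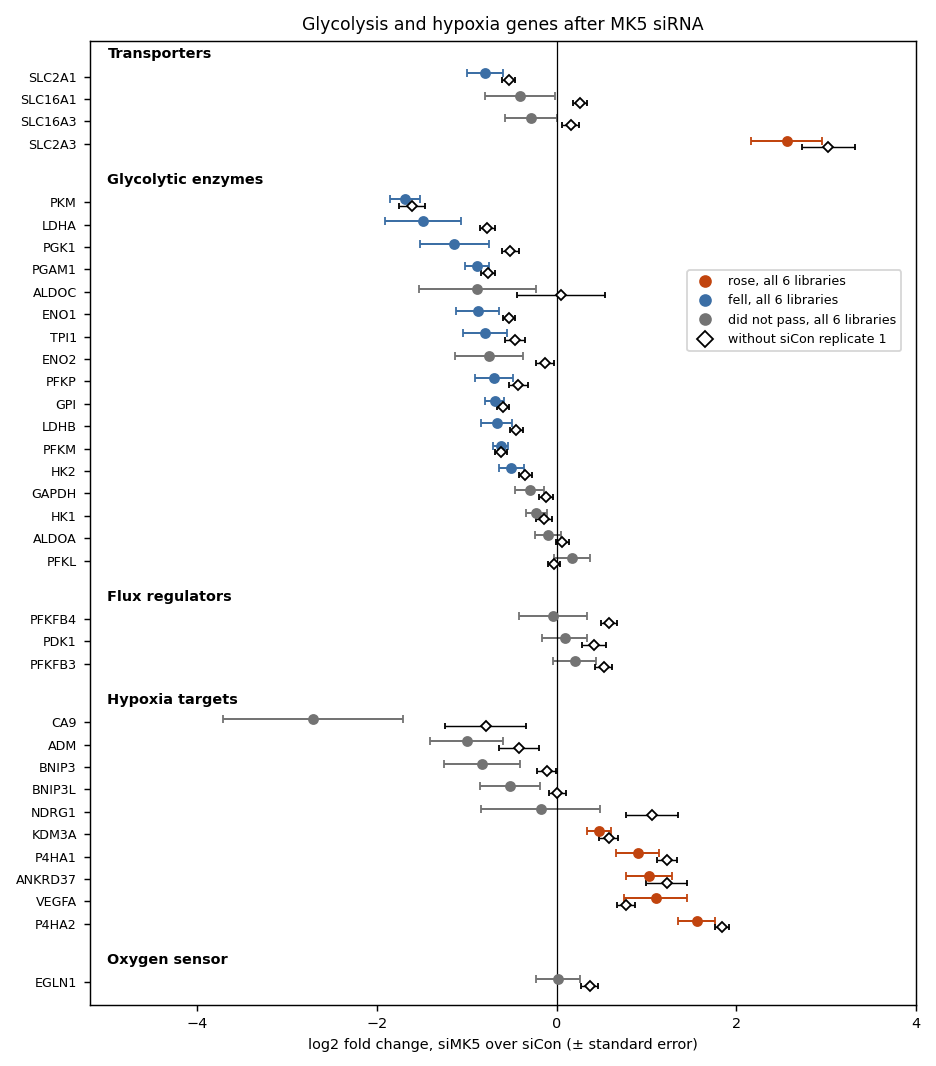
Log2 fold change, siMK5 over siCon (horizontal axis, ± standard error), of the 35 tested members by class. Filled circles use all 6 libraries and are coloured by whether the gene rose, fell or did not pass in edgeR's test. Open diamonds leave out siCon replicate 1. The enzymes lie mostly left of 0 with both sets, from PKM at −1.68 to PFKL at 0.17, and the diamonds of NDRG1, PFKFB4 and SLC16A1 are among those that lie right of 0 where their circles lie left.

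The enzymes took a smaller share of the counts in siMK5 libraries. Together the 17 enzymes took 1.68%, 1.72% and 1.66% of all counts in siMK5 replicates 1, 2 and 3, against 3.22%, 2.22% and 2.24% in siCon. The 13 other hypoxia genes took 0.162%, 0.186% and 0.166% in siMK5, against 0.186%, 0.115% and 0.102% in siCon. For the enzymes every siMK5 library was below every siCon library. For the other hypoxia genes the groups overlapped, with siCon replicate 1 as high as the siMK5 libraries.

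The 2 glucose transporters moved in opposite directions. SLC2A1 (GLUT1, ENSG00000117394), the main basal glucose carrier of most cells and of this epithelium, was at 874, 807 and 788 CPM in siMK5 replicates 1, 2 and 3, against 1897, 1195 and 1196 CPM in siCon. Every siMK5 library was below every siCon library. Its log2 fold change was −0.80 ± 0.20 (edgeR adjusted p = 0.0158), and −0.53 ± 0.07 without siCon replicate 1 (adjusted p = 0.00047). Without siMK5 replicate 2 or 3 the adjusted p was 0.0626 and 0.0637.

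SLC2A3 (GLUT3, ENSG00000059804), a carrier of higher glucose affinity typical of neurons, went the other way. It was at 301, 173 and 165 CPM in siMK5, against 55.7, 29.6 and 22.9 CPM in siCon. The groups did not overlap, and replicate 1 was the highest library in both. It rose by 2.56 ± 0.40 on the log2 scale (edgeR adjusted p = 0.00253), and by 3.03 ± 0.29 without siCon replicate 1. This was the largest rise of the list, and it passed with any one library left out. SLC2A14, a near-identical copy of SLC2A3 with which it could share reads, held at most 4 counts in siMK5 and 2 in siCon.

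The ratio of SLC2A3 to SLC2A1 within a library, which no scaling between libraries can alter, was 10.4-fold higher in siMK5. On the log2 scale it was −1.54, −2.22 and −2.25 in siMK5 replicates 1, 2 and 3, against −5.09, −5.34 and −5.71 in siCon. Per kilobase of exon, SLC2A3 made up 16.3% ± 4.0 of the 2 carriers in siMK5 and 1.84% ± 0.38 in siCon (SD, n = 3 each). The exact permutation test gave p = 0.1 (two-sided), the smallest that 3 libraries against 3 allow.

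The 2 monocarboxylate carriers did not pass with all libraries. SLC16A1 (MCT1), which carries lactate and pyruvate either way, stood at 79.1, 73.3 and 72.8 CPM in siMK5 and at 173, 63.0 and 62.6 CPM in siCon. siCon replicate 1 was more than 2 times as high as any other library. The log2 fold change was −0.41 ± 0.39 (edgeR adjusted p = 0.428) with it, and 0.26 ± 0.07 (adjusted p = 0.0148) without it. SLC16A3 (MCT4), a hypoxia-inducible lactate exporter, gave −0.28 ± 0.29 (edgeR adjusted p = 0.459), and 0.16 ± 0.10 (adjusted p = 0.196) without siCon replicate 1. BSG, the chaperone that brings both carriers to the membrane, rose in siMK5 by 0.64 ± 0.11 on the log2 scale (edgeR adjusted p = 0.00333), and was named here after its value was seen.

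In the upper part of glycolysis, hexokinase 2, glucose-6-phosphate isomerase and 2 of the 3 phosphofructokinases fell. HK2 (ENSG00000159399), the inducible hexokinase on the mitochondrial surface, was at 139.96, 133 and 129.98 CPM in siMK5 replicates 1, 2 and 3, against 228, 174 and 168 CPM in siCon. It fell by 0.50 ± 0.14 on the log2 scale (edgeR adjusted p = 0.0232), and by 0.35 ± 0.07 without siCon replicate 1. The groups were apart but closer than for the genes named first. HK1, the constitutive hexokinase, had a log2 fold change of −0.22 ± 0.12 that did not pass (edgeR adjusted p = 0.16), and −0.14 ± 0.09 without siCon replicate 1.

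GPI (ENSG00000105220), which turns glucose-6-phosphate into fructose-6-phosphate, was at 134, 132 and 134 CPM in siMK5, against 239, 204 and 201 CPM in siCon. Its siMK5 libraries were almost level and lay well below all siCon libraries. It fell by 0.69 ± 0.11 on the log2 scale (edgeR adjusted p = 0.00251), and by 0.60 ± 0.06 without siCon replicate 1.

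Phosphofructokinase, which commits the sugar to glycolysis, is built from a platelet (PFKP), a muscle (PFKM) and a liver (PFKL) subunit. PFKP (ENSG00000067057) was at 334, 271 and 272 CPM in siMK5, against 633, 383 and 405 CPM in siCon, a change of −0.70 ± 0.21 on the log2 scale (edgeR adjusted p = 0.0333), and of −0.43 ± 0.10 (adjusted p = 0.00787) without siCon replicate 1. PFKM (ENSG00000152556) was at 102, 97.7 and 98.6 CPM in siMK5, against 154, 154 and 152 CPM in siCon. PFKM was the enzyme that siCon replicate 1 touched least, and its log2 fold change of −0.62 ± 0.09 (edgeR adjusted p = 0.00184) was −0.62 ± 0.06 without that library. PFKL stood at 201, 193 and 189 CPM in siMK5 and at 120, 195 and 203 CPM in siCon. It did not pass, at 0.17 ± 0.20 on the log2 scale (edgeR adjusted p = 0.510), nor without siCon replicate 1, at −0.03 ± 0.07 (adjusted p = 0.735). The share of PFKP in the sum of PFKP and PFKL per kilobase was 73.4% ± 1.7 in siMK5 and 82.6% ± 7.0 in siCon (SD, n = 3 each).

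Aldolase A (ALDOA), one of the most abundant enzymes of the list, was at 1470, 1408 and 1336 CPM in siMK5 and at 1809, 1361 and 1333 CPM in siCon. The groups overlapped. Its log2 fold change was −0.10 ± 0.15 (edgeR adjusted p = 0.617), 0.07 ± 0.07 (adjusted p = 0.454) without siCon replicate 1 and 0.01 when libraries were scaled by their totals alone. ALDOC, the brain aldolase, was barely counted, at 0.236 to 0.383 CPM in siMK5 and 0.184 to 1.11 CPM in siCon, with −0.88 ± 0.65 on the log2 scale, which did not pass, and 0.05 ± 0.49 without siCon replicate 1. TPI1 (ENSG00000111669), which interconverts the 2 triose phosphates made by aldolase, was at 1036, 830.05 and 809 CPM in siMK5, against 2185, 1255 and 1208 CPM in siCon. All siMK5 libraries were lower. It fell by 0.80 ± 0.25 on the log2 scale (edgeR adjusted p = 0.0363), and by 0.46 ± 0.11 without siCon replicate 1.

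In the lower part of the pathway, 6 of the 8 enzymes fell and the largest changes of the pathway were found. GAPDH, the most abundant member and often used as a loading reference, was at 6870.1, 6217 and 6071 CPM in siMK5 and at 9644, 6816 and 7098 CPM in siCon. The groups overlapped by 1 library, siMK5 replicate 1, and the log2 fold change of −0.30 ± 0.16 did not pass (edgeR adjusted p = 0.171). Without siCon replicate 1 it was −0.12 ± 0.08 (adjusted p = 0.228).

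PGK1 (ENSG00000102144), the first enzyme of the pathway to make ATP, was at 388, 466 and 449 CPM in siMK5, against 1622, 648 and 597 CPM in siCon. The siMK5 libraries were lower than all siCon libraries, and siCon replicate 1 was far above the rest. It fell by 1.14 ± 0.38 on the log2 scale (edgeR adjusted p = 0.0459) with all libraries and by 0.52 ± 0.10 (adjusted p = 0.00221) without siCon replicate 1. With the replicate number as a block it was −0.97 and no longer passed (adjusted p = 0.0967), nor did it pass with library totals alone (−1.01, adjusted p = 0.0554) or in limma-voom (−0.98, adjusted p = 0.0634).

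PGAM1 (ENSG00000171314), phosphoglycerate mutase, was at 888, 793 and 793 CPM in siMK5, against 1763, 1406 and 1404 CPM in siCon. It fell by 0.89 ± 0.13 on the log2 scale (edgeR adjusted p = 0.00212), and by 0.76 ± 0.08 without siCon replicate 1. ENO1 (ENSG00000074800), the enolase of most tissues, was at 2279, 2295 and 2243 CPM in siMK5, against 5942, 3259 and 3324 CPM in siCon. For both genes every siMK5 library was below every siCon library. ENO1 fell by 0.88 ± 0.24 on the log2 scale (edgeR adjusted p = 0.0228), and by 0.53 ± 0.07 without siCon replicate 1. ENO2, the neuronal enolase, gave −0.76 ± 0.38 and did not pass (edgeR adjusted p = 0.144), with −0.13 ± 0.10 (adjusted p = 0.273) without siCon replicate 1.

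PKM (ENSG00000067225), the pyruvate kinase of dividing cells and muscle, changed most. It was at 992, 1434 and 1324 CPM in siMK5, against 4398, 3788 and 3869 CPM in siCon. The highest siMK5 library was far below the lowest siCon library. Its log2 fold change was −1.68 ± 0.16 (edgeR adjusted p = 0.00053) and −1.61 ± 0.15 without siCon replicate 1, a difference smaller than the standard error. Counts per gene do not separate the M1 and M2 splice forms of PKM.

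LDHA (ENSG00000134333), the lactate dehydrogenase subunit that favours lactate formation, was at 801, 829 and 739.8 CPM in siMK5, against 3919, 1422 and 1282 CPM in siCon. The groups were apart, and siCon replicate 1 held nearly 3 times the LDHA of the other siCon libraries. On the log2 scale the change was −1.48 ± 0.42 (edgeR adjusted p = 0.0261) with it and −0.77 ± 0.08 (adjusted p = 0.000141) without it. LDHB (ENSG00000111716), the subunit typical of lactate-using tissue, was at 713, 645 and 681 CPM in siMK5, against 1375, 923 and 936 CPM in siCon, a change of −0.67 ± 0.17 on the log2 scale (edgeR adjusted p = 0.0190), and of −0.45 ± 0.07 without siCon replicate 1. Since LDHA was lower by more than LDHB, the log2 ratio of LDHB to LDHA was −0.17, −0.36 and −0.12 in siMK5, against −1.51, −0.62 and −0.45 in siCon. Per kilobase LDHB made up 64.2% ± 2.1 of the pair in siMK5 and 53.3% ± 9.7 in siCon (SD, n = 3 each). On counts without length correction it made up 46.3% in siMK5 and 35.8% in siCon, so which subunit prevailed depends on the correction.

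Of the 11 enzymes that fell, GPI, PFKM, PGAM1 and PKM passed with any one library left out. HK2, PFKP, TPI1, PGK1, ENO1, LDHA and LDHB passed without any one siCon library but not without any one siMK5 library, where their edgeR adjusted p lay between 0.0525 and 0.142. Their log2 fold changes stayed below 0 in these fits, between −1.51 and −0.47. With replicate 1 of both groups left out, 13 of the 17 enzymes fell and none rose, beside 37.8% of all genes that fell and 37.9% that rose (75.8% in either direction).

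**Figure D3:**
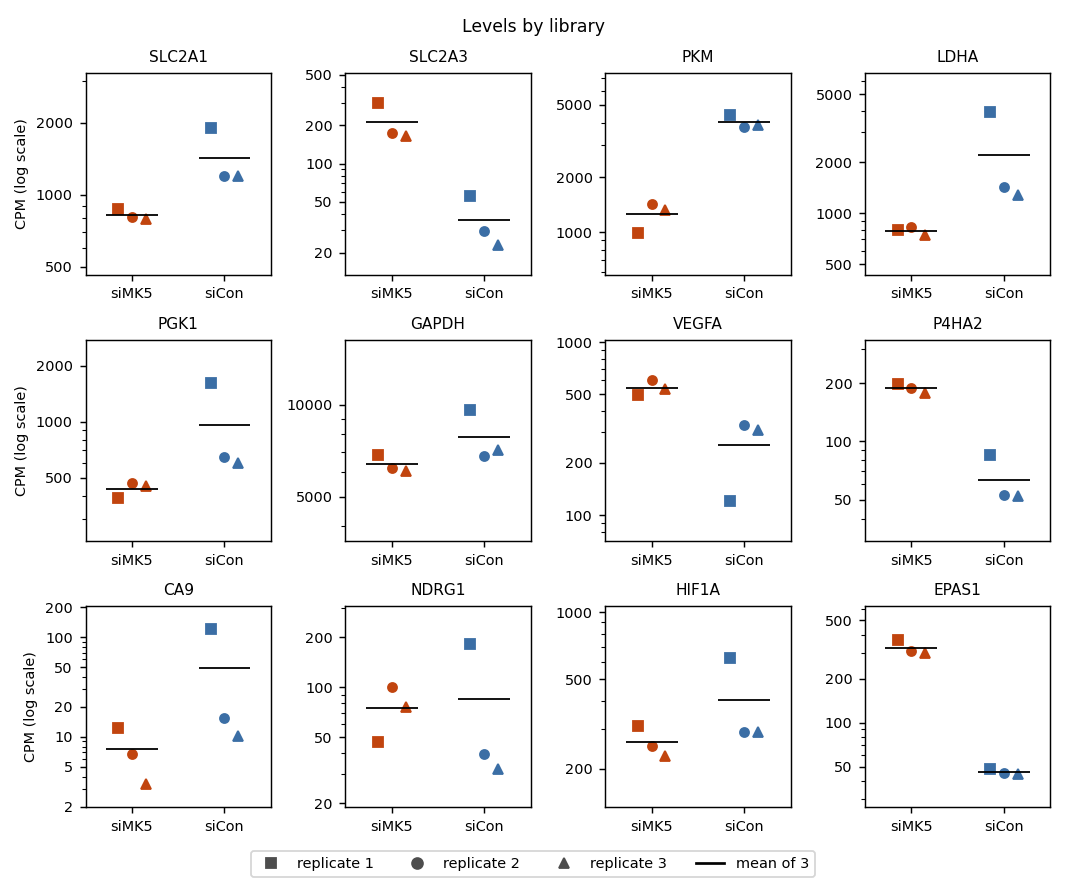
CPM on a log scale (vertical axis) in each library of siMK5 and siCon for 10 members and for HIF1A and EPAS1. Squares, circles and triangles are replicates 1, 2 and 3, and the line is the mean of 3. PKM, SLC2A3, P4HA2 and EPAS1 show a gap between the groups wider than the range within either group, while LDHA, PGK1, CA9 and NDRG1 show siCon replicate 1 far above the other siCon libraries.

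Levels per kilobase of exon place these changes on 1 scale. GAPDH was the most abundant, at 2142 ± 143 CPM per kilobase in siMK5 and 2634 ± 523 in siCon (SD, n = 3 each). ENO1 followed with 431 ± 5.06 in siMK5 and 791 ± 290.1 in siCon, ahead of PGAM1 with 321 ± 21.4 and 594 ± 80.5, TPI1 with 330.3 ± 46.4 and 574 ± 204, and PKM with 146 ± 26.9 and 469 ± 38.7 (siMK5 and siCon in each case). In siCon, neighbours in this order from ENO1 to PKM did not differ beyond the spread of the 3 libraries, while GAPDH stood well above ENO1. In siMK5 PKM stood below ALDOA (359 ± 17.1), LDHB (228 ± 11.4) and, within the spread, SLC2A1 (174 ± 9.58). This order depends on dividing by the union of all annotated exons, 8.57 kb for PKM, 2.98 kb for LDHB and 4.72 kb for SLC2A1. In plain CPM the siMK5 mean of PKM (1250) was above those of SLC2A1 (823) and LDHB (679), and below that of ALDOA (1405).

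None of the 3 tested regulators of flux passed with all libraries. PFKFB3 and PFKFB4 make fructose-2,6-bisphosphate, the activator of phosphofructokinase, and PDK1 shuts pyruvate out of the mitochondrial oxidation by phosphorylating pyruvate dehydrogenase. PFKFB3 was at 72.5, 63.6 and 59.4 CPM in siMK5 and 79.2, 46.3 and 44.6 CPM in siCon. PFKFB4 was at 45.3, 50.3 and 46.3 CPM in siMK5 and 82.4, 32.8 and 30.2 CPM in siCon. PDK1 was at 33.5, 43.1 and 39.8 CPM in siMK5 and 50.9, 32.0 and 26.4 CPM in siCon. In all 3 genes siCon replicate 1 was the highest library of the 6 and the other siCon libraries the lowest.

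With all libraries the log2 fold changes were 0.20 ± 0.23, −0.04 ± 0.38 and 0.09 ± 0.25 for PFKFB3, PFKFB4 and PDK1 (edgeR adjusted p = 0.512, 0.942 and 0.787). Without siCon replicate 1, the library singled out for being high in such genes, all 3 rose. The rises were 0.52 ± 0.10, 0.59 ± 0.09 and 0.41 ± 0.14 (edgeR adjusted p = 0.00227, 0.000757 and 0.0282). None of the 3 passed with any other single library left out (edgeR adjusted p = 0.496 to 0.995). PDK3, a further pyruvate dehydrogenase kinase, was not tested, with 1, 2 and 2 counts in siMK5 and 13, 2 and 2 in siCon.

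Among the hypoxia targets outside glycolysis, both collagen prolyl 4-hydroxylase subunits, VEGFA, ANKRD37 and KDM3A rose. P4HA2 (ENSG00000072682), an alpha subunit of the enzyme that hydroxylates collagen prolines in the endoplasmic reticulum, was at 197, 188 and 178 CPM in siMK5, against 85.3, 53.0 and 52.1 CPM in siCon. Every siMK5 library was more than 2 times as high as the highest siCon library. It rose by 1.56 ± 0.21 on the log2 scale (edgeR adjusted p = 0.00145), and by 1.84 ± 0.08 without siCon replicate 1, and it passed with any one library left out.

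P4HA1 (ENSG00000122884), the main alpha subunit, was at 235, 258 and 229 CPM in siMK5, against 179.8, 113 and 92.6 CPM in siCon, a change of 0.90 ± 0.24 on the log2 scale (edgeR adjusted p = 0.0197). Without siCon replicate 1 it was 1.23 ± 0.11 (adjusted p = 5.04e-05), and without any other single library it did not pass (adjusted p = 0.0518 to 0.0768). P4HA2 was higher by more than P4HA1, and its share of the pair per kilobase was 22.1% ± 1.2 in siMK5 and 15.4% ± 1.4 in siCon (SD, n = 3 each). On counts without length correction the share was 43.8% in siMK5 and 33.4% in siCon.

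VEGFA (ENSG00000112715), the growth factor of vessel endothelium, was at 493, 607 and 534 CPM in siMK5, against 120.3, 329 and 311 CPM in siCon. The groups were apart, and here siCon replicate 1 was the lowest library, unlike for nearly all other members. It rose by 1.1 ± 0.35 on the log2 scale (edgeR adjusted p = 0.0395), and by 0.77 ± 0.10 (adjusted p = 0.000388) without siCon replicate 1. It did not pass without siCon replicate 3 (adjusted p = 0.0507) or without any one siMK5 library (0.0830 to 0.108).

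KDM3A (ENSG00000115548), a histone H3 lysine demethylase induced by HIF-1, was at 119, 101 and 101 CPM in siMK5, against 87.5, 77.0 and 66.5 CPM in siCon. All siMK5 libraries were higher. Its log2 fold change was 0.47 ± 0.14 (edgeR adjusted p = 0.0264), 0.58 ± 0.10 without siCon replicate 1, and it did not pass without any other single library (adjusted p = 0.0637 to 0.0989). ANKRD37 (ENSG00000186352), a small ankyrin-repeat protein gene used in hypoxia signatures, was low, at 3.9, 3.83 and 2.83 CPM in siMK5, against 2.15, 1.47 and 1.54 CPM in siCon. The log2 fold change was 1.03 ± 0.26 (edgeR adjusted p = 0.0155), and 1.23 ± 0.23 without siCon replicate 1, with adjusted p of 0.0639, 0.0629 and 0.0665 without siCon replicate 2, siCon replicate 3 and siMK5 replicate 2. In GRCh38, 35.2% of its exonic bases are shared with UFSP2 on the opposite strand, and the strand setting of the counting is not given in the sources used here.

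The other 5 tested targets did not pass with all libraries, and in each of them siCon replicate 1 was the highest library. CA9 (ENSG00000107159), a membrane carbonic anhydrase and classical HIF-1 marker, was at 12.4, 6.78 and 3.33 CPM in siMK5 and at 121, 15.6 and 10.3 CPM in siCon. The groups overlapped by siMK5 replicate 1. Its log2 fold change was −2.71 ± 1.01 (edgeR adjusted p = 0.0632), and −0.79 ± 0.45 (adjusted p = 0.159) without siCon replicate 1. It was −3.17 and −3.23 without siCon replicates 2 and 3 (adjusted p = 0.0489 and 0.0324). With the replicate number as a block it was −2.06 and passed (adjusted p = 0.0251), each siMK5 library being lower than the siCon library of its number. It also passed with no low-count filter (adjusted p = 0.0366) and in DESeq2 (adjusted p = 0.0377), where ADM passed too (adjusted p = 0.0344). Of the exonic bases of CA9, 38.5% are shared with ARHGEF39 on the opposite strand.

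ADM, the vasodilator peptide adrenomedullin, was at 95.9, 56.2 and 56.0 CPM in siMK5 and at 230.2, 97.3 and 88.9 CPM in siCon. As for CA9, replicate 1 was the highest of its group on both sides. Its log2 fold change was −1.0 ± 0.41 (edgeR adjusted p = 0.0842), −0.42 ± 0.22 (adjusted p = 0.131) without siCon replicate 1 and −0.91 with the replicate number as a block (adjusted p = 0.0114). With the block, the other hypoxia genes therefore had 5 rises and 2 falls, CA9 and ADM, beside 23.5% of all genes that rose and 23.9% that fell (47.3% in either direction).

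BNIP3 and BNIP3L mark mitochondria for removal by autophagy. BNIP3 had −0.83 ± 0.42 on the log2 scale (edgeR adjusted p = 0.151) with all libraries and −0.11 ± 0.11 (adjusted p = 0.393) without siCon replicate 1. BNIP3L had −0.52 ± 0.33 (edgeR adjusted p = 0.240) and 0.01 ± 0.09 (adjusted p = 0.933). NDRG1, a stress-response gene often used in hypoxia signatures, was at 46.8, 101 and 76.2 CPM in siMK5 and at 182, 39.7 and 32.1 CPM in siCon. Its direction changed with the libraries and the model used. The log2 fold change was −0.18 ± 0.67 (edgeR adjusted p = 0.844) with all libraries and 1.06 ± 0.29 (adjusted p = 0.0133) without siCon replicate 1. It was 0.07 without siMK5 replicate 1 and 0.30 with the replicate number as a block. CA12, a further carbonic anhydrase, was not tested, with 0, 0 and 2 counts in siMK5 and 2, 2 and 5 in siCon.

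The prolyl hydroxylases that mark HIF alpha subunits for destruction were represented by EGLN1 (PHD2), the main oxygen sensor. It was at 93.0, 85.6 and 76.1 CPM in siMK5 and at 119.99, 65.6 and 66.2 CPM in siCon. The groups overlapped, and the log2 fold change was 0.02 ± 0.25 (edgeR adjusted p = 0.962), or 0.37 ± 0.10 (adjusted p = 0.0103) without siCon replicate 1. EGLN3 (PHD3) was not tested, with no count in siMK5 and 1 count in siCon.

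Across 11 pairs of related genes, the log2 ratio within a library did not overlap between the groups in 6. Ratios of other genes were not examined, but for single genes the groups did not overlap in 60.4% of all genes. The count of 6 is therefore not read as a trait of these pairs. SLC2A3/SLC2A1 (difference 3.37), LDHB/LDHA (0.65), P4HA2/P4HA1 (0.64) and BNIP3L/BNIP3 (0.23) were higher in siMK5, and PFKP/PFKL (−0.87) and HK2/HK1 (−0.27) were lower. Each of these 6 reached the smallest exact permutation p of 0.1, or 0.183 after Benjamini-Hochberg adjustment over the 11 pairs, so none could pass. Without siCon replicate 1 the 6 differences were 3.52, 0.32, 0.60, 0.12, −0.40 and −0.20 in the same order. The smallest, BNIP3L/BNIP3, was close to the spread of 0.14 within siMK5 and 0.19 within siCon (SD).

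**Figure D4:**
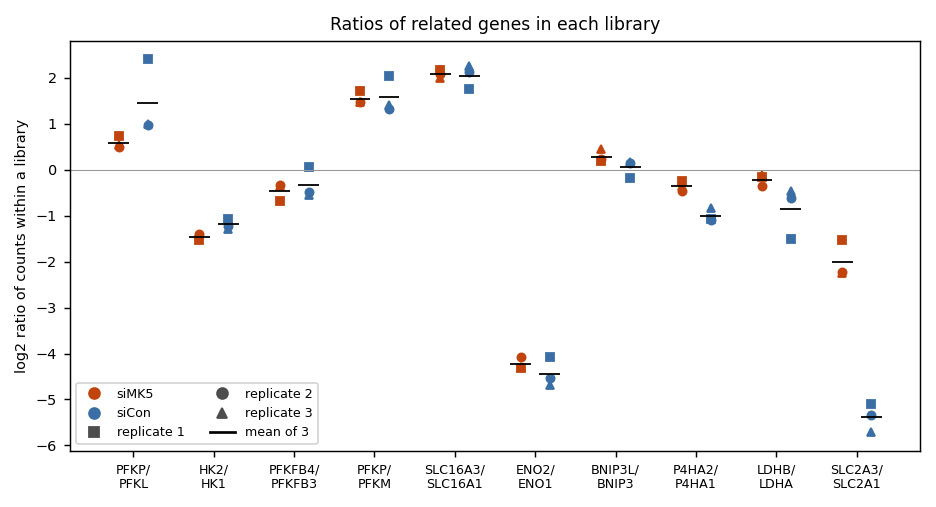
Log2 ratio of the counts of 2 related genes within a library (vertical axis) for 10 of the 11 pairs, siMK5 left and siCon right in each pair. Squares, circles and triangles are replicates 1, 2 and 3 and the line is the mean of 3. ALDOC/ALDOA, at −12.2 in siMK5 and −11.7 in siCon on average, is not drawn. SLC2A3/SLC2A1 shows the widest gap, with −2.0 in siMK5 and −5.38 in siCon on average.

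Of the HIF factors and their regulators, 11 of 13 listed genes were tested. Of these 4 rose and 3 fell, beside 22.5% of all genes that rose and 23.7% that fell. EPAS1 (HIF-2 alpha, ENSG00000116016) was at 369, 308 and 302 CPM in siMK5, against 48.5, 45.4 and 44.8 CPM in siCon. This 7.05-fold rise, a change of 2.82 ± 0.12 on the log2 scale (edgeR adjusted p = 0.000148), was larger than that of any member with all libraries and was 2.86 ± 0.11 without siCon replicate 1. HIF1A (ENSG00000100644) was at 310.0, 253 and 228 CPM in siMK5 and at 626, 292 and 292 CPM in siCon. The groups overlapped by 1 library, and its log2 fold change of −0.61 ± 0.32 (edgeR adjusted p = 0.155) was −0.14 ± 0.12 (adjusted p = 0.342) without siCon replicate 1, the library with the highest HIF1A.

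ARNT, the common partner, rose by 0.59 ± 0.16 on the log2 scale (edgeR adjusted p = 0.0222), but not without siCon replicate 3 or any one siMK5 library (adjusted p = 0.0534 to 0.0776). SIAH2, a ubiquitin ligase that targets EGLN proteins, rose by 1.40 ± 0.15 (edgeR adjusted p = 0.000757). The coactivator EP300 rose by 0.35 ± 0.12 (edgeR adjusted p = 0.0408) and its relative CREBBP fell by 0.37 ± 0.10 (adjusted p = 0.0233), and both passed in only 1 of the 6 fits with a library left out, the one without siCon replicate 1 (otherwise 0.0860 to 0.163 for EP300 and 0.0618 to 0.109 for CREBBP). ARNT2, a neural relative of ARNT, fell by 1.08 ± 0.16 (edgeR adjusted p = 0.00235), and CITED2, which competes with HIF for these coactivators, fell by 0.95 ± 0.10 (adjusted p = 0.000761). VHL (0.42 ± 0.18, edgeR adjusted p = 0.0929) and HIF1AN (0.30 ± 0.14, adjusted p = 0.124), which hold HIF in check, did not pass, although HIF1AN passed without siCon replicate 1 (0.45 ± 0.08, adjusted p = 0.00125). EGLN2 was not analysed here.

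Hypoxia targets that are no members were mixed as well, with 12 rises and 3 falls among 34 tested of 36 listed. Of all genes, 22.5% rose and 23.7% fell. Without siCon replicate 1 there were 20 rises and 7 falls, beside 32.3% and 32.1% of all genes. With the replicate number as a block there were 14 rises and 5 falls, beside 23.5% and 23.9% of all genes. Leaving out siMK5 replicate 1, 2 or 3 gave 6 rises and 2 falls each time. In those fits 18.2%, 15.1% and 15.4% of all genes rose and 18.9%, 15.4% and 15.8% fell. Leaving out siCon replicate 2 gave 9 rises and 4 falls, and siCon replicate 3 gave 7 and 6. There 17.0% of all genes rose each time, and 2715 of 13660 and 2750 of 13642 fell. ANGPTL4, a lipoprotein lipase inhibitor, was at 10.8, 22.2 and 24.7 CPM in siMK5, against 3.14, 0.516 and 0.695 CPM in siCon, a rise by 3.73 ± 0.70 on the log2 scale (edgeR adjusted p = 0.00531; 4.99 ± 0.47 without siCon replicate 1). HMOX1, heme oxygenase 1, rose by 1.89 ± 0.13 (edgeR adjusted p = 0.000229) and the kinase gene RIOK3 by 1.36 ± 0.15 (adjusted p = 0.000722). The repressor BHLHE40 rose by 1.32 ± 0.44 (edgeR adjusted p = 0.0460), but passed only without siCon replicate 1 (1.99 ± 0.23) when single libraries were left out (0.0776 to 0.151 otherwise). EDN1 (endothelin 1) fell by 3.19 ± 0.21 (edgeR adjusted p = 0.000209) and the collagen-crosslinking LOXL2 by 0.75 ± 0.16 (adjusted p = 0.00966). FAM162A, a mitochondrial protein gene, fell by 1.04 ± 0.27 (edgeR adjusted p = 0.0191) and by 0.66 ± 0.11 without siCon replicate 1, but not without any one siMK5 library (0.0561 to 0.0709).

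Of 37 further genes of glycolysis and pyruvate use, 25 were tested. Of these 8 rose and 5 fell, beside 22.5% of all genes that rose and 23.7% that fell. ENO3, the muscle enolase, rose to 15.7, 27.6 and 25.8 CPM in siMK5, against 3.29, 3.69 and 4.10 CPM in siCon, a change of 2.64 ± 0.25 on the log2 scale (edgeR adjusted p = 0.000488), opposite to ENO1. The glucose carrier SLC2A10 rose by 2.20 ± 0.30 (edgeR adjusted p = 0.00157), the mitochondrial phosphoenolpyruvate carboxykinase PCK2 by 1.65 ± 0.19 (adjusted p = 0.000834) and PFKFB2 by 1.18 ± 0.18 (adjusted p = 0.00224). PGM2 (phosphoglucomutase 2), TIGAR (a fructose-2,6-bisphosphatase) and DLAT (pyruvate dehydrogenase E2) fell by 1.05 ± 0.15, 0.95 ± 0.20 and 0.68 ± 0.09 (edgeR adjusted p = 0.00194, 0.00807 and 0.00164). PDHB (pyruvate dehydrogenase E1 beta) fell by 0.41 ± 0.09 (adjusted p = 0.0115), but not without siMK5 replicate 2 or 3 (0.0740 and 0.0656).

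Of 7 genes of glucose sensing and MYC, 5 were tested. MYC, an activator of many glycolytic genes, was at 203, 117 and 112 CPM in siMK5 and at 292, 158 and 148 CPM in siCon. Replicate 1 was the highest library of both groups, and the groups overlapped. The log2 fold change was −0.46 ± 0.34 (edgeR adjusted p = 0.291), −0.08 ± 0.24 without siCon replicate 1 (adjusted p = 0.787), and −0.45 with the replicate number as a block, where it passed (adjusted p = 0.0173). MLX rose by 0.33 ± 0.09 (edgeR adjusted p = 0.0253), but passed only without siCon replicate 1 when single libraries were left out (0.0533 to 0.115 otherwise). MLXIP, the MondoA partner of MLX, and ARRDC4, a glucose-induced arrestin gene, fell by 0.47 ± 0.11 and 0.43 ± 0.10 (edgeR adjusted p = 0.0115 and 0.0126), but not without siMK5 replicate 2 or 3 (0.0628 to 0.0685).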

How the data were processed

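Per the labels' protocols, total RNA went into TruSeq V2 libraries. The tools in the submitters' processing notes are TopHat2 2.1.1, Trimmomatic 0.36, HTSeq 0.9.1 and FastQC, on GRCh37, with no settings. The deposited table's name speaks of CPM, but the deposited values are whole-number counts per gene, as the varying library totals show. No row stood for unassigned reads, and 14359 genes had no count.

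In R 4.3.3, edgeR 4.0.16 kept genes by filterByExpr (least count 10, least total count 15), scaled libraries by TMM and compared siMK5 with siCon without a block by the quasi-likelihood test. Two-sided p-values were adjusted by Benjamini-Hochberg over all genes (threshold 0.05), and standard errors are the log2 fold change over the square root of F. CPM are TMM-scaled. Differences within a replicate pair use log2(CPM + 0.5). Lengths and opposite-strand overlaps came from GENCODE 29 on GRCh38, and promoters from RefSeq GRCh38.p14, matched by symbol for 33 of 38 members. SLC16A1, VEGFA, SLC2A3, BNIP3L and NDRG1 had no promoter window.

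The members, the lists and the tests were chosen with earlier results of these data known. All members are named, and of other lists the HIF genes, MYC and up to 4 passing rises and 4 passing falls with a mean of at least 5 CPM. Members are given by library where they passed or are SLC2A1, HK2, LDHA, PGK1, CA9 or VEGFA; other members' library values were added after they were seen.

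Both groups carry replicate numbers 1 to 3. Deviations from the group mean of same-numbered libraries correlated across genes at 0.258, 0.206 and 0.248 for replicates 1, 2 and 3, so the replicate number was taken to pair them in the fit with a block and in the differences within pairs, while calls come from the fit without a block. The labels do not state a pairing, and replicates 2 and 3 were also alike across groups (0.182 and 0.151). Groups lay apart on principal component 1 (72.5% of variance) and siCon replicate 1 on component 2 (20.95%). The alternatives were other scalings and low-count filters, DESeq2 1.42.0, limma-voom (limma 3.58.1), the block, and libraries left out. The scripts were tested on simulated data.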

Additional observations from a re-analysis of the deposited data

How the results depend on the processing

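With replicate 1 of both groups left out, 5195 of all genes rose and 5177 fell, 12 members rose and 2 other hypoxia genes fell. The ratio then did not overlap between the groups in 10 of the pairs of related genes. Groups of fewer libraries separate more easily, so counts of pairs with libraries left out are not comparable with that from all libraries. With any one library left out, 2064 to 4455 of all genes rose and 2103 to 4419 fell, 2 to 12 members rose and 4 to 13 fell, 4 to 11 enzymes fell, 1 to 7 other hypoxia genes rose and 0 to 1 fell, and 6 to 8 pairs did not overlap. The highest of the counts of rises came without siCon replicate 1. Falls among the other hypoxia genes numbered 1 with no low-count filter, 2 with the DESeq2 test and 2 with the replicate block. No enzyme rose in any of these settings. The median of the 11 other hypoxia genes tested with all libraries was −0.0010 with no low-count filter (−0.21 over the 13 tested there), −0.0035 with the DESeq2 test, −0.37 in pair 1 and 0.60 in pair 3, and −0.16 to 0.58 with 1 library left out.

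Directions turned only for members that did not pass with all libraries. With replicate 1 of both groups left out the log2 fold change was 0.22 for SLC16A1, 0.070 for SLC16A3, −0.056 for PFKL, 0.031 for ALDOA, 0.071 for ALDOC, 0.62 for PFKFB4, 0.041 for BNIP3L and 1.31 for NDRG1. Scaling by library totals alone, which moved the median of all genes by 0.10, gave 0.012 for ALDOA and 0.088 for PFKFB4. Limma-voom gave 0.13 for PFKFB4 and 0.22 for NDRG1, and the replicate block 0.13 and 0.30. EGLN1 was −0.0010 with no low-count filter and −0.0035 with the DESeq2 test. With 1 library left out the ranges were −0.68 to 0.26 for SLC16A1, −0.50 to 0.16 for SLC16A3, −0.028 to 0.29 for PFKL, −0.20 to 0.066 for ALDOA, −1.33 to 0.050 for ALDOC, −0.31 to 0.59 for PFKFB4, −0.12 to 0.41 for PDK1, −0.79 to 0.0098 for BNIP3L, −0.60 to 1.06 for NDRG1 and −0.16 to 0.37 for EGLN1. The cause of these changes was not tested.

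The replicate block ended the call of PGK1 and made calls of CA9 and ADM, and changed no other call among the members. The limits are the small number of libraries, whose common coefficient of biological variation was 21.2% with all of them and 4.63% in replicates 2 and 3 alone, the unstated strand setting, and the low counts of PDK3, CA12 and EGLN3.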

Other observations

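HIF1A-AS2, a transcript whose symbol marks it as antisense to HIF1A, was named after its values were seen. It was at 0.328, 0.417 and 0.370 CPM in siMK5 replicates 1, 2 and 3, against 1.72, 7.45 and 6.8 CPM in siCon. The log2 fold change was −3.82 ± 0.60 (edgeR adjusted p = 0.00269), and −4.24 ± 0.21 without siCon replicate 1. Unlike HIF1A, it was lowest in replicate 1 among the siCon libraries. Without the strand setting of the counting, its reads cannot be told apart from those of HIF1A where the 2 overlap.

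Processed pseudogenes of LDHA and BNIP3 were highest in siCon replicate 1, as were their parent genes. LDHAP4 held 272, 284 and 277 counts in siMK5, against 1251, 450 and 391 in siCon, and the rows of all LDHA pseudogenes came to at most 1.27% of the LDHA count. BNIP3P1 held 439, 529 and 458 counts in siMK5, against 1392, 479 and 395 in siCon, and the BNIP3 pseudogenes reached 11.6% of the BNIP3 count. How many of these reads came from the parent genes was not tested. The pseudogene rows of GAPDH, PGK1, LDHB, ENO1, PKM, PGAM1, TPI1, ALDOA, HK2, SLC2A3 and SLC16A1 held at most 0.32% of the parent's count, and they did not all follow the parent: those of PGAM1 held 13, 29 and 20 counts in siMK5, against 6, 15 and 10 in siCon, and those of GAPDH 32, 29 and 26 in siMK5, against 9, 17 and 21 in siCon.

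TXNIP, a glucose-responsive gene that in most cells is well expressed, was listed at 0 in all 6 libraries, and MIF, a hypoxia target, held 0 to 6 counts. For MIF, 61.9% of the exonic bases are shared with MIF-AS1 on the opposite strand.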
